A study of Homo sapiens with 2 samples.

Results

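The accessible regions around 8 transcription factor genes of the germinal-centre and plasma-cell programme were examined in Z-138 cells. The genes were BCL6, IRF4, IRF8, PRDM1, XBP1, SPIB, POU2AF1 and POU2F2. Z-138 is an established human line of mantle cell lymphoma, a malignancy of mature B cells. ATAC-seq, in which a transposase cuts and tags open chromatin, was run on 2 libraries. The control library came from Z-138 cells with a control shRNA, and the knockdown library from Z-138 cells with an shRNA against SMARCA4, an ATPase subunit that powers SWI/SNF chromatin remodelling. Both cultures were grown with doxycycline, and the labels of neither library name ibrutinib or venetoclax, the drugs that the design of the series refers to. There was 1 library per group, from 1 cell line. How far SMARCA4 was lowered was not checked, since accessibility data hold no measure of its RNA or protein.

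Every peak overlapping a fixed hg19 span of 50 to 90 kb around each gene was taken as a member. This gave 23 of the 55124 control regions and 22 of the 41540 knockdown regions on chromosomes 1 to 22 and X. Within the spans, regions were taken by position alone, not by height or by presence in the other list. The loci themselves were chosen with earlier results of these data known. The spans may reach past the genes. In the GRCh38 gene order, CCDC117 lies beside XBP1, POLD1 and MYBPC2 on either side of SPIB, ZNF574 beside POU2F2 and DUSP22 beside IRF4. This order gives no distances, so whether a span reaches any of these neighbours was not determined. An hg19 gene annotation was not used here, so a region is placed in a span and not on a promoter, exon or intron. The region nearest to a span edge on the outside was a control region 0.946 kb before the XBP1 span, with a fold enrichment of 5.16 and 6 reads at its summit. The nearest outside knockdown region lay 1.16 kb past the BCL6 span, with a fold of 10.2 and 18 reads. It overlapped a control region of 8 reads. Inside that span the highest knockdown values were a fold of 10.1 and 15 reads. The nearest on the inside was a control region 2.47 kb into the IRF4 span, with a fold of 3.61 and 4 reads.

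These factors form opposing circuits in B cells. BCL6 is a repressor that germinal-centre B cells need. IRF8, which often binds together with ETS factors such as SPIB, also acts in these cells. POU2F2 (Oct-2) binds the octamer motif of immunoglobulin promoters and recruits the co-activator POU2AF1 (OCA-B). IRF4 and PRDM1 (Blimp-1) drive plasma-cell differentiation, in which PRDM1 and BCL6 repress each other, and XBP1 builds up the secretory pathway. Mantle cell lymphoma resembles B cells of the mantle zone, most of which have not passed through the germinal centre.

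RefSeq promoter sequences (build GRCh38.p14) were found for 7 of the 8 genes. Those of 3 genes are shown because their loci held very different numbers of regions: XBP1, whose span held a single, strongly enriched region; BCL6, the locus with the most regions over both lists; and IRF8, where the knockdown list held none. Each is the 250 bases before the first start listed for the gene, 5′ to 3′. For BCL6, IRF8, PRDM1 and XBP1 the source listed 2 promoters each, and only the first was searched. Capitals mark matches on either strand to the motifs named after the sequences.
XBP1: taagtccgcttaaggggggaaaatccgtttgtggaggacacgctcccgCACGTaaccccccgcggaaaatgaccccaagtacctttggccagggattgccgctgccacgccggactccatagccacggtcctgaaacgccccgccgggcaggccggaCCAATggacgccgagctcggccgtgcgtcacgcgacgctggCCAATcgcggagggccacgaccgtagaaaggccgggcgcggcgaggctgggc
BCL6: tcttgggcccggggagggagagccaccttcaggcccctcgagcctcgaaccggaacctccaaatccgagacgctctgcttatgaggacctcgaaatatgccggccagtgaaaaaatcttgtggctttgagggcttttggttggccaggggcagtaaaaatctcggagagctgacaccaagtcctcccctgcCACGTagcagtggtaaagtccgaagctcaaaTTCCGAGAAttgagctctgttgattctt
IRF8: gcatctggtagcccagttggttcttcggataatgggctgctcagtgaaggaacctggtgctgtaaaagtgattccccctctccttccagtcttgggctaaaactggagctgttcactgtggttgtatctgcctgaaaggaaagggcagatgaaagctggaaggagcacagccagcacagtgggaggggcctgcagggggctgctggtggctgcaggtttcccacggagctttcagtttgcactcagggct
The XBP1 stretch held 31 CpG dinucleotides, the BCL6 stretch 12 and the IRF8 stretch 2, where the median over 27305 promoters was 11 (interquartile range 3 to 23). CCAAT, the letters bound by NF-Y, occurred 2 times in the XBP1 stretch and in none of the other 6, against 33.0% of all promoters. ACGTG, the core of the XBP1 site, occurred in the XBP1, BCL6 and PRDM1 stretches and in 18.7% of all promoters. TTCNNNGAA, which BCL6 and STAT factors bind, occurred in the BCL6 stretch alone among the 7 and in 6.78% of all promoters. GAGGAA, a core of ETS sites such as those of SPIB, occurred in the IRF4, PRDM1 and POU2F2 stretches and in 23.4% of all promoters. The octamer ATGCAAAT, the IRF letters GAAANNGAA and the joint ETS and IRF letters GGAANNGAA occurred in none of the 7, and in 1.66%, 7.06% and 6.59% of all promoters. GAGGAA can overlap the joint letters on the same bases. The peaks could not be placed on these sequences because the builds differ.

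The number of regions at these loci was nearly the same in both libraries, 23 in the control and 22 in the knockdown. That is 95.7% of the control number, with a 95% counting interval of 50.8 to 180%, against 75.4% (74.4 to 76.3%) over the whole lists. Member regions covered 4495 bp in the control and 4674 bp after knockdown, or 104%, against 82.0% over all regions. The counting interval of the member percentage spans the percentage of the whole lists, so 23 regions do not separate these loci from the rest. Intervals of shares and ratios cover counting error only, and those of medians cover the spread between regions. With 1 library per group no spread between cultures could be measured and no test between groups was made.

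A region without an overlap of at least 1 bp in the other list was called unpartnered. Of the 23 control regions 6 were unpartnered, and 39.5% of all control regions were. The partnered share was thus 73.9% (51.6 to 89.8%), against 60.5% over all control regions. In the knockdown list 4 of 22 were unpartnered, beside 20.6% of all knockdown regions. The 6 control-only regions were at BCL6, IRF4, IRF8 and POU2AF1 (1 each) and at PRDM1 (2). The 4 knockdown-only regions were at BCL6 and SPIB (2 each). XBP1 and POU2F2 had no unpartnered region in either list.

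Unpartnered members ranked below the middle of their lists by fold enrichment, and so did most partnered members of both lists. By summit reads, not all unpartnered members ranked below the middle. The fold enrichment, which is the deposited ratio of summit reads to expected background in 1 library, was between 3.61 and 6.45 at the 6 control-only regions. Their summits, recovered from the deposited fold and p-value as numbers of stacked reads, held 4 to 9 reads. At the knockdown depth these are 5.37 to 12.1 reads. The lowest summits that the knockdown list called at like background held 4 to 6 reads, and all 6 lay at or above that value. Each such value is the single lowest among 2662 to 7641 knockdown regions, so this outcome was nearly fixed in advance. It does not show that a call was due, and the share over all unpartnered regions was not counted. Below a fold of 5, 4 of 8 control members were unpartnered, against 72.7% of all control regions of that strength. At folds from 5 to 10, 2 of 13 were unpartnered, against 34.3%. At folds of 10 or more, 0 of 2 were, against 5.32%. The 4 knockdown-only regions had folds of 4.81 to 5.73 and summits of 8 to 12 reads, or 5.96 to 8.94 reads at the depth of the control library. The lowest control summits at like background, each among 1813 to 6459 control regions, held 4 to 7 reads. All 4 lay at or above that value, which likewise does not show that a call was due. The BCL6 control-only summit of 9 reads was above 50.1% of the control list. The SPIB knockdown-only summit of 12 reads was above 56.0% of the knockdown list. Among knockdown members, 1 of 5 below a fold of 5 was unpartnered against 53.1%, 3 of 15 at folds from 5 to 10 against 19.9%, and 0 of 2 above against 0.469%.

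**Figure D1:**
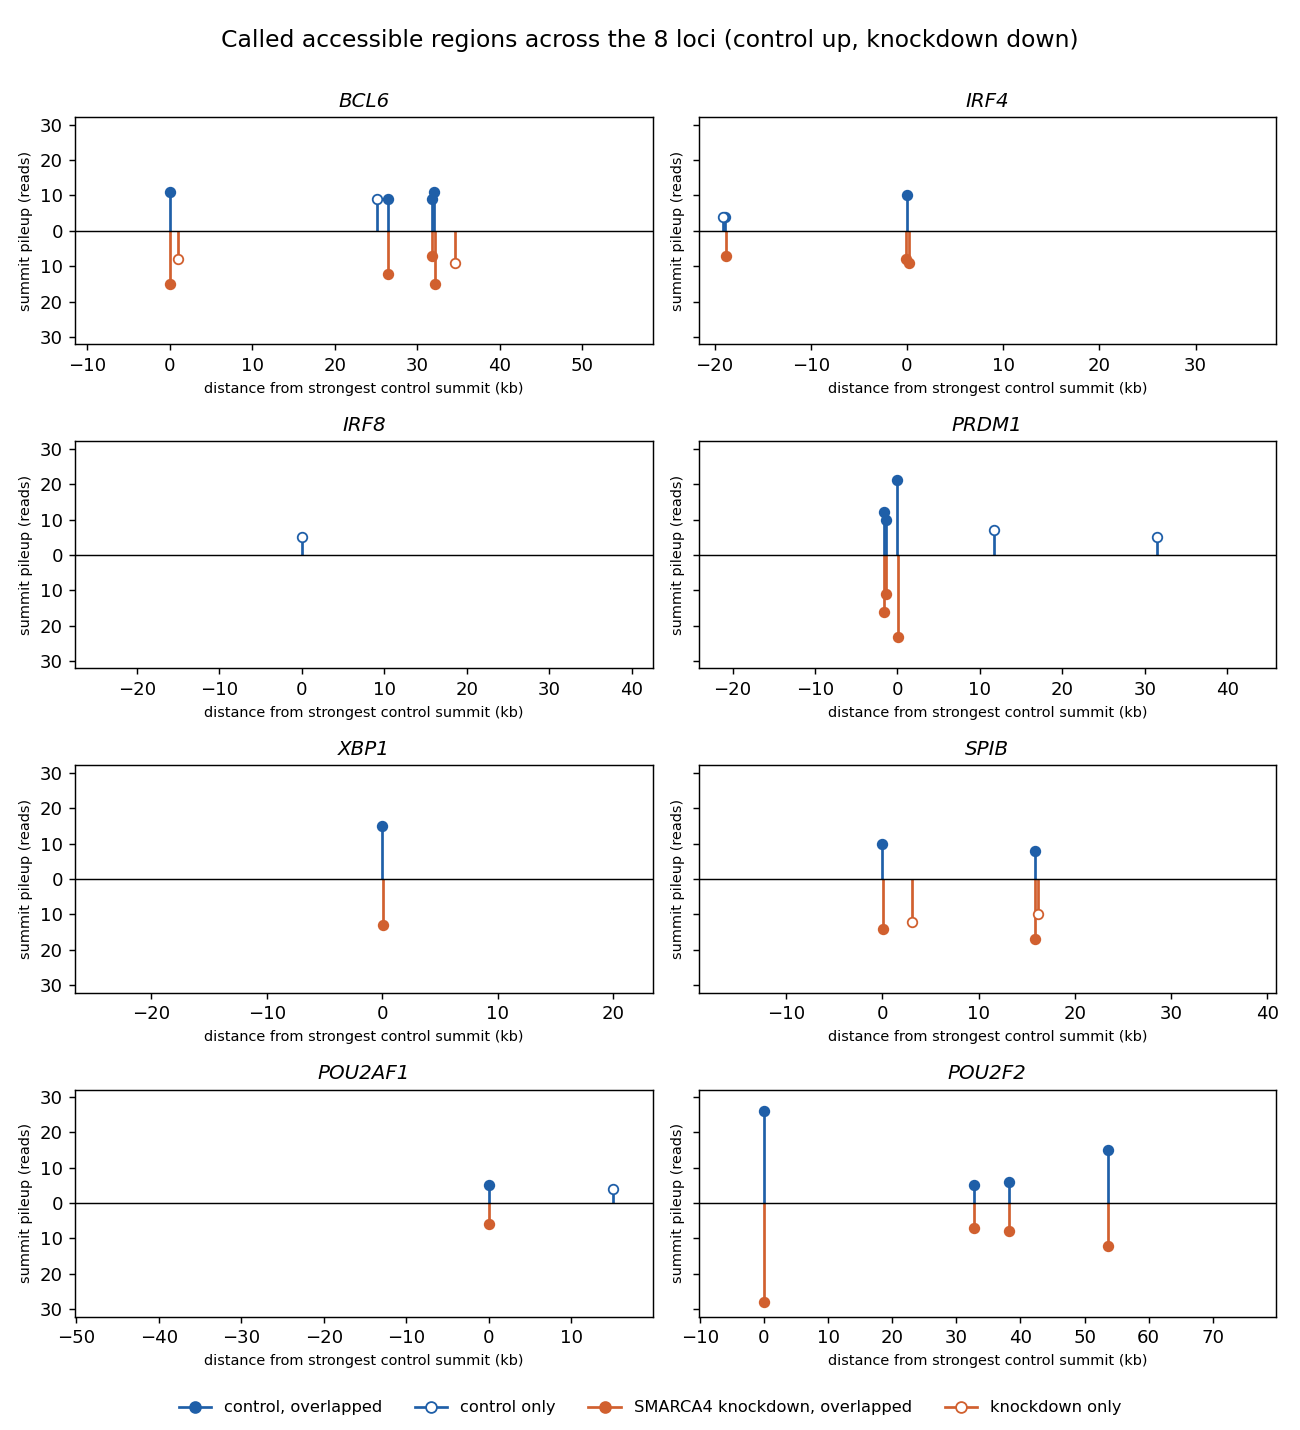
Summit pileup in reads (vertical axis, control upward and knockdown downward, not scaled for depth) of every called region against the distance in kb from the strongest control summit of its locus; each horizontal axis spans the locus, filled points have an overlapping region in the other list and open points do not. The POU2F2 and PRDM1 spans carried the highest summits, 26 and 21 reads in the control, while the single region of the IRF8 span held 5 reads.

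BCL6 had 5 control and 6 knockdown regions in its 70 kb span on chromosome 3. Of all 70 kb windows tiled over the genome, 3.78% held at least 5 control regions and 0.969% at least 6 knockdown regions. No window was left out for assembly gaps or distance from genes, and regions were counted by midpoint. Such windows are thus unlike spans placed on genes, here and at the other loci. The region from 187431379 to 187431572 held 11 reads at its summit in the control and 15 after knockdown, and 1 further control region of the span also reached 11 reads. Scaled by depth this is a ratio of 1.02 (0.436 to 2.45), so the summits did not differ beyond counting error. Its fold was 9.16 in the control and 10.1 after knockdown, above 76.2% and 77.3% of the respective lists. Most other BCL6 members formed a second group. There the control list held regions from 187456497 to 187456590, without a partner, and from 187457780 to 187457901, with 9 reads each. At the latter the knockdown list held 12 reads, a scaled ratio of 0.994 (0.384 to 2.67). A pair of neighbouring regions began at 187463185 and 187463457 in the control, with summits of 9 and 11 reads. Their knockdown partners held 7 and 15 reads, for scaled ratios of 0.58 (0.183 to 1.75) and 1.02 (0.436 to 2.45), and both intervals included 1. The knockdown-only regions ran from 187432314 to 187432480, with 8 reads, and from 187465930 to 187466089, with 9 reads. They lay 0.741 and 2.34 kb from the nearest control region. The reads in the 10 kb around the members, recovered from the local background that the caller used, were 33 in the control and 66 after knockdown at the region first named, or 1.41-fold (0.916 to 2.21) after scaling for read number. Around the partnered members of the second group they were 89 to 97 in the control and 125 to 134 in the knockdown library, with scaled ratios of 0.975 to 0.999.

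SPIB encodes an ETS factor of B cells and had 2 control and 4 knockdown regions in its 60 kb span on chromosome 19. Covered length was 293 bp in the control and 725 bp after knockdown. The region from 50934930 to 50935023 had the narrowest width the control list allows, 94 bp, and 8 reads, while its knockdown partner from 50934937 to 50935082 had 17 reads. This scaled ratio of 1.58 (0.648 to 4.24) was the highest of the 17 pairs at these loci, and its interval included 1. In the surrounding 10 kb there were 68 control and 120 knockdown reads, a scaled ratio of 1.25 (0.917 to 1.70). A knockdown-only region with 10 reads lay beside it, from 50935174 to 50935399, 0.15 kb from the control region. The region from 50919020 to 50919218 held 10 reads in the control and 14 after knockdown, a scaled ratio of 1.04 (0.431 to 2.63). A second knockdown-only region, from 50922030 to 50922251, held 12 reads and lay 2.81 kb from the nearest control region. Of all 60 kb windows 3.64% held at least 4 knockdown regions, and 28.6% held at least 2 control regions. The 2 additional knockdown regions at SPIB thus had summits of 10 and 12 reads.

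IRF8, a factor of germinal-centre B cells that often binds together with ETS factors, had the fewest called regions. It held 1 control region, on chromosome 16 from 85937401 to 85937494, with 5 reads, a fold of 4.55 and the narrowest width the list allows. The fold was above 14.5% of the control list. The knockdown list held no region in the span, and its nearest was 82.1 kb away. Of all 70 kb windows 49.0% held no knockdown region, so an empty window of this size was common over the genome, gene-poor stretches included. Scaled to the knockdown library the control summit amounts to 6.71 reads. The lowest of 5787 summits called there at like background held 4, which does not show that a call was due. Beyond the end of the span, neither list held a region for about 609 kb. The absence of a call marks a signal below the caller's limit and does not show closed chromatin.

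POU2F2, which encodes Oct-2, had 4 control and 4 knockdown regions in its 90 kb span on chromosome 19, and every one had a partner. The region from 42579944 to 42580483 was the strongest and widest of all members. It was 540 bp wide in the control and 544 bp after knockdown, with 26 and 28 reads at the summit and folds of 13.5 and 13.7. These folds were above 94.0% of the control list and 93.1% of the knockdown list. Its scaled summit ratio was 0.803 (0.454 to 1.42), and the 10 kb around it held 106 control and 126 knockdown reads. ZNF574 neighbours POU2F2, and which of the genes this region belongs to was not determined. The region from 42633598 to 42634027 held 15 reads in the control and 12 after knockdown, a scaled ratio of 0.596 (0.255 to 1.36). It was 430 bp wide in the control and 537 bp after knockdown, so the summit was lower where the region was wider. Between them, narrow regions from 42612819 to 42612937 and from 42618237 to 42618371 held 5 and 6 control reads and 7 and 8 knockdown reads. Their scaled ratios were 1.04 (0.285 to 4.17) and 0.994 (0.302 to 3.47). These weak regions were found at nearly the same place in both libraries, with summits 34 bp and 0 bp apart.

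POU2AF1, the co-activator that Oct-2 recruits, had 2 control regions and 1 knockdown region in its 70 kb span on chromosome 11. The region from 111249867 to 111250165 was 299 bp wide in the control with 5 reads at its summit. Its knockdown partner, from 111250088 to 111250212, was 125 bp wide with 6 reads, for a scaled ratio of 0.894 (0.227 to 3.70). The 2 regions shared 78 bp, and the control region had no partner when 50% of it had to be covered. In the 10 kb around them there were 55 control reads and 45 knockdown reads, although the knockdown library had the larger read number. After scaling this was a ratio of 0.577 (0.381 to 0.872). It was the only 1 of the 15 member windows whose counting interval excluded 1, and 16.6% of the 27933 windows over all pairs had such an interval below 1. The second control region, from 111265142 to 111265235, held 4 reads and had no partner within 14.9 kb.

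IRF4, required for plasma cells, had 3 regions in each list within its 60 kb span on chromosome 6. The control region from 391580 to 391951, 372 bp wide with 10 reads, was met by separate knockdown regions from 391529 to 391617 and from 391724 to 392059, with 8 and 9 reads. It was the only 1 of the 23 control members that overlapped more than 1 knockdown region, which 1.43% of all control regions did. No knockdown member overlapped more than 1 control region, beside 2.73% of all knockdown regions. The higher of the knockdown summits lay 218 bp from the control summit, so the scaled ratio of 0.671 (0.241 to 1.84) compares different positions in the same region. The 10 kb around it held 90 control and 122 knockdown reads, a scaled ratio of 0.957 (0.723 to 1.27). Near the start of the span the control list held neighbouring regions from 372471 to 372629 and from 372719 to 372812, with 4 reads each and folds of 3.61 and 3.63. The latter overlapped a knockdown region with 7 reads, and the former lay 0.112 kb from it. Both control folds were low, above 2.16% and 2.20% of the list.

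PRDM1, the repressor that ends the germinal-centre programme, had 5 control and 3 knockdown regions in its 70 kb span on chromosome 6. At least 5 control regions were found in 3.78% of all 70 kb windows and at least 3 knockdown regions in 11.2%. The 3 partnered regions stood close together. The main region, from 106534022 to 106534326, held 21 reads in the control and 23 after knockdown, and its folds were 9.58 and 9.79. It was 305 bp wide in the control and 410 bp after knockdown. The scaled ratio was 0.816 (0.432 to 1.55). Its neighbours from 106532400 to 106532552 and from 106532648 to 106532767 held 12 and 10 control reads and 16 and 11 knockdown reads, for scaled ratios of 0.994 (0.441 to 2.30) and 0.82 (0.316 to 2.15). The windows around these 3 regions overlap, and they held 125 or more control and 146 to 163 knockdown reads, with scaled ratios of 0.818 to 0.833. Both remaining control regions were unpartnered and stood alone in quiet sequence, where the caller used its genome-wide background. They ran from 106545730 to 106545921 with 7 reads and from 106565498 to 106565714 with 5 reads, and the nearest knockdown regions were 11.3 and 31.1 kb away. The region of 7 reads had the highest fold of the 6 control-only members, 6.45, above 49.6% of the control list.

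XBP1, the factor of the secretory pathway and unfolded protein response, had 1 region in each list within its 50 kb span on chromosome 22. The control region from 29196504 to 29196693 held 15 reads and the knockdown region from 29196498 to 29196737 held 13 reads. Their folds were 11.4 and 9.51, above 87.7% and 73.3% of the respective lists. The scaled summit ratio was 0.646 (0.283 to 1.46), and the interval included 1. The knockdown region was the wider, at 240 bp against 190 bp. Its control summit pileup was 34.9% of the reads in the surrounding 10 kb, the highest among the 19 of 23 control members whose background lay above the genome-wide level. The value could not be had for the other 4. The median was 11.1% over those 19 members and 18.8% over the 43785 control regions with a value. In the knockdown library this value was 24.5%. The 10 kb held 43 control and 53 knockdown reads, a scaled ratio of 0.87 (0.571 to 1.33).

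**Figure D2:**
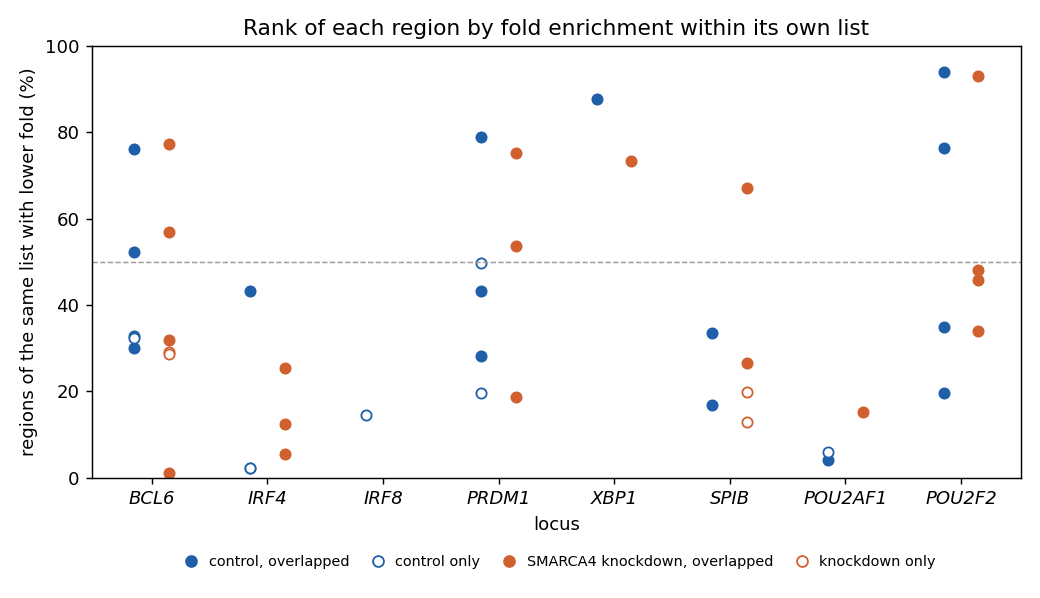
Percent of regions in the same list with a lower fold enrichment (vertical axis) for every member by locus, with filled points for regions that overlap the other list and open points for those that do not. Open points stay below the middle of the lists, as do most filled points. The leading region of the POU2F2 span ranks above 93.1% or more of either list.

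Set side by side, 7 of the 8 loci had at least 1 shared region and IRF8 had none. Member regions had a median fold of 5.44 in the control and 5.83 after knockdown, against 6.45 and 7.04 over all regions. Their median summit pileup was 9 and 11.5 reads, against 8 and 10 over all regions, so the order of members and lists depended on the measure. Above the genome-wide background, the 10 kb windows of members had a median of 89 control and 122 knockdown reads, against 52 and 72 over all regions. These medians leave out regions at that background and count overlapping windows at BCL6, IRF4, PRDM1 and SPIB repeatedly. Of the members, 10 of 23 in the control and 7 of 22 in the knockdown lay below the list median or at the background. Most regions of either list meet this condition by construction, since the list medians leave out regions at the background. Those were 20.6% of all control and 14.6% of all knockdown regions, beside 17.4% and 9.09% of the members. Median widths were 153 bp and 170 bp, against 161 bp and 163 bp.

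At the 17 shared regions, summits differed between libraries by less than counting error. Before scaling, 13 of 17 had more reads in the knockdown library, beside 59.2% of all 33358 pairs. The knockdown library was deeper, and equal accessibility would give 1.34 times as many summit reads as in the control. After scaling by that value the log2 ratio (knockdown over control) had a median of -0.01 (range -0.79 to 0.66), against -0.24 over all pairs (interquartile range -0.62 to 0.08). The 95% interval of the member median, -0.32 to 0.02, includes the median of all pairs. That interval comes from the spread of the 17 regions. It treats neighbouring regions of a locus as separate measurements, so it may be too narrow. Scaled summits were lower in the knockdown at 11 of 17, beside 70.3% of all pairs. They were over 1.5-fold lower at 3 of 17, at BCL6, XBP1 and POU2F2, beside 26.4%, and over 1.5-fold higher at 1 of 17, at SPIB, beside 4.76%. No member pair had a counting interval that excluded 1. Over all pairs, 6.02% had such an interval below 1 and 0.654% above it. The narrowest member interval, at the leading region of the POU2F2 span, ran from 0.454 to 1.42. Changes smaller than about that width were thus not detectable at this depth.

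**Figure D3:**
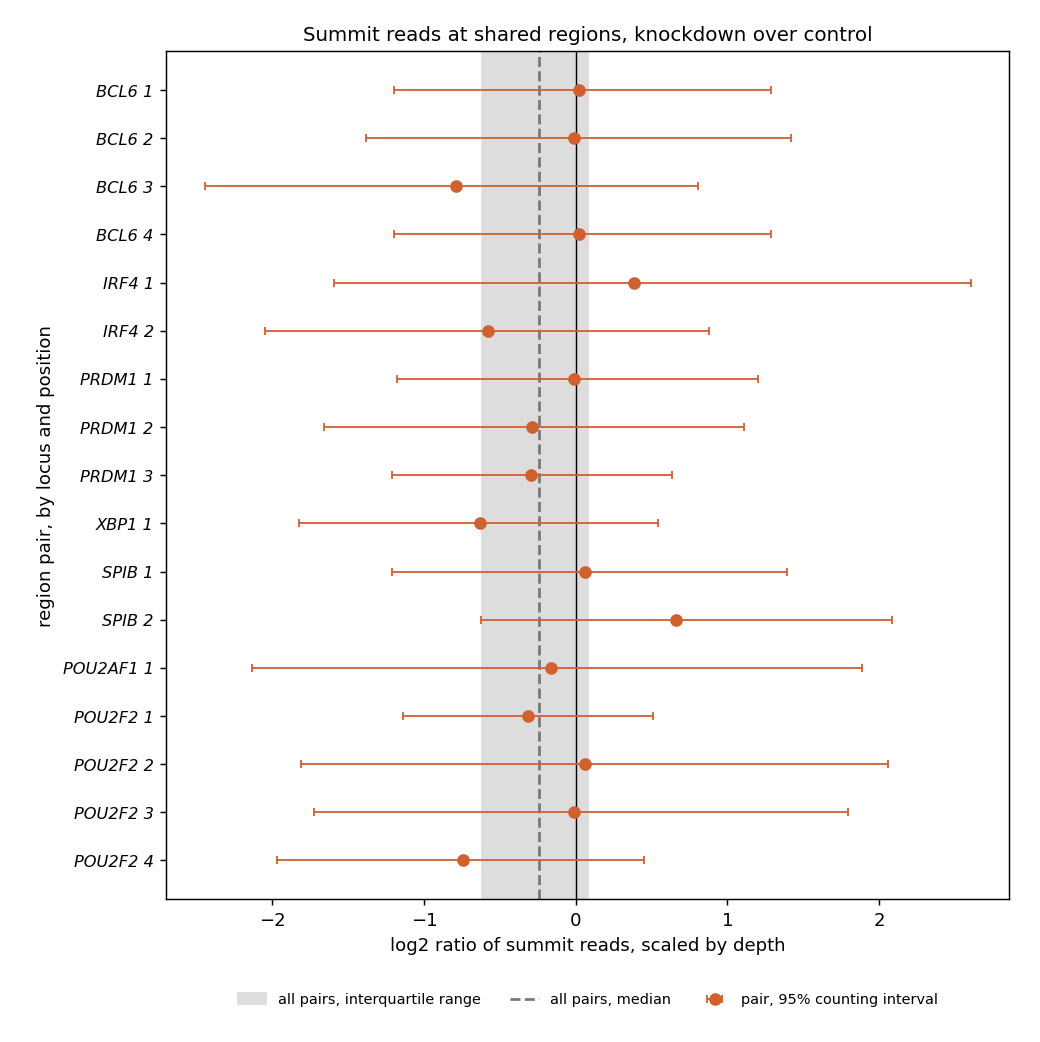
Log2 ratio of knockdown to control summit reads, scaled by depth (horizontal axis), for the 17 shared regions numbered by position within each locus, with 95% counting intervals; the grey band and dashed line give the interquartile range and median of all 33358 pairs. All 17 intervals include 0, and the SPIB 2 and BCL6 3 pairs are the highest and lowest at 0.66 and -0.79.

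All 4 pairs with at least 15 control reads, at PRDM1, XBP1 and POU2F2 (2), had a scaled ratio below 1, beside 85.1% of all such pairs, and each interval included 1. Choosing pairs by a high control summit favours ratios below 1. Chosen instead by at least 15 knockdown reads, 3 of 6 member pairs were below 1, beside 62.4%. Knockdown regions were wider than their control partners at 11 of 17, beside 47.5% of all pairs, with a median width ratio of 1.15 against 0.981. Partner summits lay a median of 33 bp apart, against 28 bp over all pairs.

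The reads in the surrounding 10 kb gave a measure that rests on more reads, in a window placed around the summit of each library. At 15 shared regions where both libraries were above the genome-wide background, the median log2 ratio scaled by read number was -0.12 (range -0.79 to 0.50), against -0.14 over 27933 pairs. It was below 0 at 13 of 15, beside 67.7%. Windows overlap among 3 of the BCL6 regions and among the 3 PRDM1 regions, so these are not 15 separate measurements. With 1 window per locus, that of the strongest control region, the 7 loci gave a median of -0.20. The lowest was POU2AF1 at -0.79, and the highest was BCL6 at 0.50. At BCL6 another control region also held 11 summit reads, and its window had a log2 ratio of -0.03. No member window had an interval above 0, which 1.33% of all windows had.

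**Figure D4:**
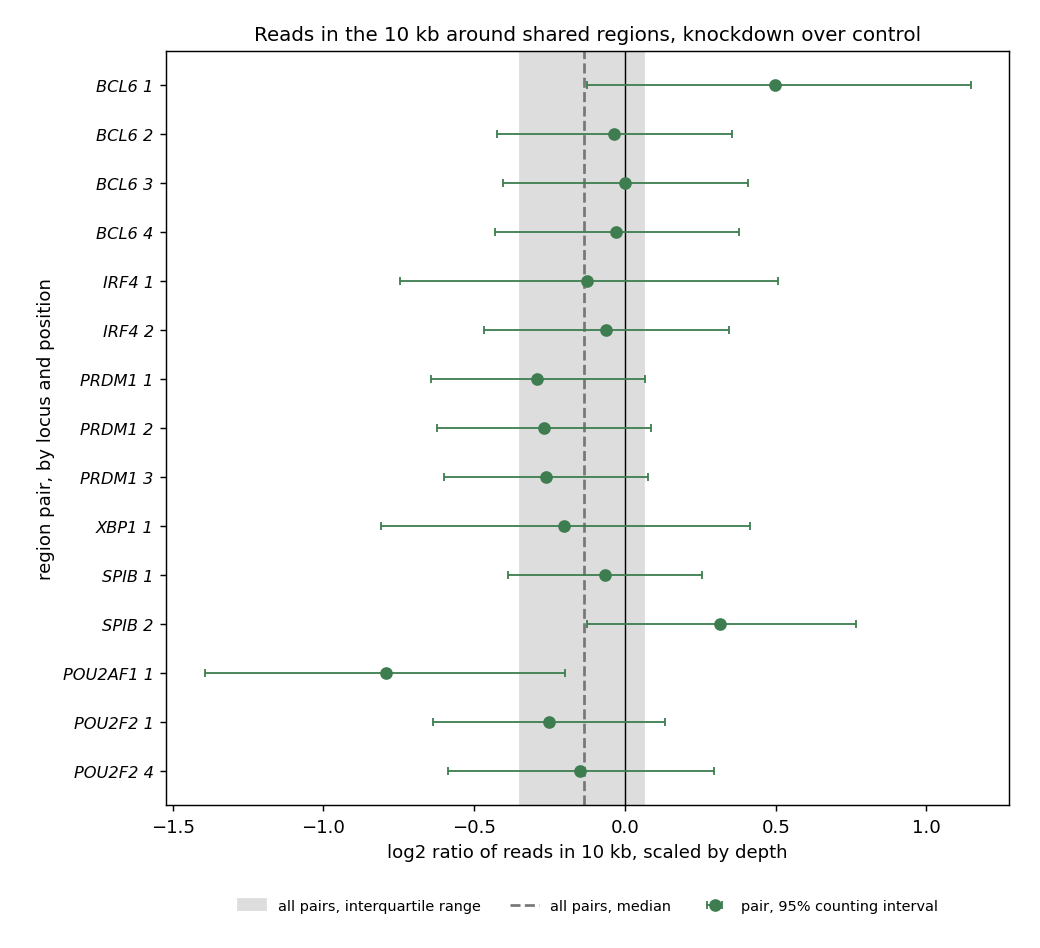
Log2 ratio of knockdown to control reads in the 10 kb around shared regions, scaled by read number (horizontal axis), for 15 regions with 95% counting intervals; the grey band and dashed line give the interquartile range and median of all 27933 such pairs. The POU2AF1 window lies at -0.79 with an interval below 0, and the other 14 intervals include 0.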

How the data were processed

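ATAC-seq was run on 2 Z-138 libraries, a control and a SMARCA4 knockdown. Groups came from the genotype labels. The authors deposited 1 peak list per library. Reads were handled with BWA, MACS2 and bcl2fastq 2.17.1.14 on hg19, per the submitters' processing notes, and no parameters are given in the sources used here. The deposited fold is a ratio of summit reads to background, 1 read added to each. Columns of −log10 p and −log10 q, deposited by the authors, belong to the summit, and the deposited score is 10 times −log10 q without decimals. Deposited q-values reached 0.0479 (control) and 0.0499 (knockdown).

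Summit pileup and background were solved from fold and p with a Poisson tail, giving back −log10 p within 4.15e-05. In data simulated from each list, 55253 of 55259 control and all 41611 knockdown pileups came back exactly. Background times 10 kb over the extension length (94 and 89 bp, the shortest widths) gave whole reads within 0.00117. Summit ratios were divided by 1.34, the ratio of genome-wide backgrounds, and 10 kb ratios by 1.42, the ratio of read numbers. Absolute read totals are not given in the lists. Ratio and share intervals are exact (conditional binomial and Clopper-Pearson, 95%), and that of a median comes from order statistics. Reads without molecular identifiers are not independent molecules. Python 3.11.15, SciPy 1.17.1 and pandas 2.3.3 were used.

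The loci were chosen with earlier results of these data known. All members are named. The motifs were chosen after the promoters were seen. Further B-cell factor genes were not analysed here, for want of hg19 positions.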

Additional observations from a re-analysis of the deposited data

How the results depend on the processing

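No paired analysis was possible because each group had 1 library, and leaving out a replicate was not possible for the same reason. The 5 values over the 8 loci were recomputed 73 times in all, with 12 to 16 alternatives each. Of these, 4 recomputations, of 3 of the values, fell outside the interval of the value as reported. For the medians, that interval treats regions of the same locus as separate measurements. The partnered share of knockdown regions, 81.8%, became 57.1% (8 of 14) when both lists were limited to a q-value of 1e-05. The median log2 summit ratio, -0.01, became 0.23 when scaled to the median of all pairs and -0.47 over the 4 pairs with at least 15 control reads. The median log2 ratio of 10 kb reads, -0.12, became 0.011 when scaled to the median of all pairs. Rescaling shifts these medians by construction, and choosing pairs by a high control summit favours ratios below 1, as stated above. Causes of the shifts beyond this were not tested. The partnered share of control regions, 73.9%, ranged from 63.2% with spans widened by 20 kb to 87.5% with lists of equal length. Knockdown regions numbered 95.7% of control regions, 140% at that q-value and 86.8% with widened spans. Without the SPIB locus this was 85.7%, and without PRDM1 it was 106%. Leaving out single loci kept the summit median between -0.16 and -0.01. Member summits held 4 to 28 reads, which limits what could be detected.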
